A study of Mus musculus with 23 samples.

Results

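The 31 genes described here carry out or prepare for DNA synthesis in S phase, and they were taken by symbol from a table of 23284 genes in which every one of the 31 has a row. The rule of choice used no expression value of the table, but earlier results of these data were known when the genes were chosen. The libraries came from 16 individual mouse mesenchymal stem cells of bone marrow (mMSC1 to mMSC16), 5 single HL-1 cardiomyocytes (HL1cm1 to HL1cm5) and a bulk population control of each cell type (mMSC-PC and HL1cm-PC), and the 23 of them were read by RNA-seq. The labels give the strain of the mMSCs as C57BL/6J and their passages as 6 to 11; they had been purchased and came from 3-month-old male mice, and were grown on gelatin in serum. HL1cm were at passages 70 to 85 and were grown in Claycomb medium with norepinephrine. HL-1 is a line of atrial cardiomyocytes from mice that carry a viral large T antigen under the atrial natriuretic factor promoter, and it divides in culture, so it stands for dividing tumour-derived cardiomyocytes and not for heart muscle. No treatment was compared, and both cell types were captured in a shared Fluidigm C1 device with a chip made for sizes of 17 to 25 micrometres. The HL1cm carried a green cytoplasmic dye at capture, which the methods do not give for the mMSCs, so dye and cell type cannot be told apart.

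Before S phase, ORC, CDC6 and CDT1 load the ring of MCM2 to MCM7 onto DNA as an inactive helicase, which becomes active when CDC45 and the GINS complex join it. Polymerases, the sliding clamp PCNA and its loader RFC then copy DNA at the fork, ribonucleotide reductase and thymidylate synthase supply the nucleotides, and histone chaperones and maintenance factors rebuild chromatin behind it. Many of these genes are transcribed in late G1 by E2F factors, and their transcripts are low in resting cells. The E2F factors act once cyclins D and E, with their kinases, relieve the block by the retinoblastoma protein.

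The E2F factors are known to bind short sites rich in G and C, and such letters stood in the promoters of 11 of the 25 genes for which RefSeq windows were available (GRCm38.p6, 250 bases before and 50 after the start). The search used TTTCCCGC, TTTGGCGC, TTTCGCGC and TTTGCCGC on both strands, and overlapping matches were each counted. The share was 44.0% for the 25 genes, 2.61% for all 27025 genes with a window and 4.89% for the 8424 such genes among those expressed here. Of 35 G2/M genes with a window 1 held these letters (2.86%), while 26 of the 35 (74.3%) held TTTGAA, the letters of the cell cycle homology region, which 3 of the 25 (12%) and 20.2% of all genes held. CCAAT, on either strand, stood in 16 of the 25 (64.0%), 27 of the 35 G2/M genes (77.1%) and 41.1% of all genes. A match is a description of the letters and not of a bound site, and the motifs were chosen after the expression values had been seen. Ccne2, Gins2, Mcm4, Pole, Rfc2 and Usp1 had no window.

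The 250 bases before the starts of Mcm5 (chr8:75109259-75109508, plus strand) and Mcm6 (chr1:128359706-128359955, minus strand) are shown because in both an E2F match overlaps another on the opposite strand. They run 5′ to 3′ on the strand of the gene, with the E2F and CCAAT matches in capitals.
Mcm5: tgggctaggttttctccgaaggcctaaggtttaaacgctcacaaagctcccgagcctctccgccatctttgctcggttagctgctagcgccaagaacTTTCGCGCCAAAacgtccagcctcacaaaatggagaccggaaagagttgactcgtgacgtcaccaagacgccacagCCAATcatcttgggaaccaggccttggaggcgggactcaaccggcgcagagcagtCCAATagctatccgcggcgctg
Mcm6: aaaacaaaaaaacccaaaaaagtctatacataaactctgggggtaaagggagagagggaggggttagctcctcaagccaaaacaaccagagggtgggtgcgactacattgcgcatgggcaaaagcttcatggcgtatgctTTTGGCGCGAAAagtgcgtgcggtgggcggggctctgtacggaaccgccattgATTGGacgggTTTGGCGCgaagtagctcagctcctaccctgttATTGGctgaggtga

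For the other 9 genes with a match, 1 site each is shown in 30 bases, on the strand on which the capitals read as searched, to compare the letters and their flanks. The sites of Mcm3, Mcm7, Clspn and Lig1 lie after the RefSeq start and the others before it, and those of Mcm3, Mcm7, Clspn, Lig1 and Hells lie in an annotated exon. Their positions in GRCm38.p6 are chr1:20820275-20820304 (plus) for Mcm3, chr5:138171849-138171878 (minus) for Mcm7 and chr11:98908002-98908031 (minus) for Cdc6. Pola1 is at chrX:93632275-93632304 (plus), Lig1 at chr7:13278841-13278870 (minus) and Uhrf1 at chr17:56304117-56304146 (plus). Hells is at chr19:38930917-38930946 (plus), Clspn at chr4:126556990-126557019 (minus) and Dtl at chr1:191575534-191575563 (minus).
Mcm3: acttcccaagtTTTCCCGCcacggaagttt
Mcm7: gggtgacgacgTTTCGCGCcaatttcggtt
Cdc6: accccaggcgaTTTCCCGCtctccaccggc
Pola1: gcgggagtgcaTTTGGCGCcctgtgatgac
Lig1: cgccacacagaTTTCGCGCgcactttggcg
Uhrf1: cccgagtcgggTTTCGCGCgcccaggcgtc
Hells: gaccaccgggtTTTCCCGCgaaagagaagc
Clspn: gaagttcgagcTTTCGCGCccagacgcggt
Dtl: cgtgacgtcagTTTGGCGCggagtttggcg

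Values are FPKM, fragments scaled by exon length and by the mapped fragments of the library, as the authors deposited them, so levels can be set side by side between genes. The table itself does not give the read depth of the libraries, the depths that the study lists were not used here, and no counting interval is given. The closest measure in the table is the count of genes that reached 1 FPKM, which was 5178 in mMSC9, 5837 in mMSC15, 6496 to 7241 in the other 14 mMSCs, 6428 to 7010 in HL1cm, 9625 in mMSC-PC and 9881 in HL1cm-PC. Genes that every cell uses were also listed at 0 in places (10 of 315 values of 15 general genes in single cells), so a gene is called listed at 0 and not absent. The cells matched their labels. The 17 cardiomyocyte markers summed to 34246 to 60601 FPKM in HL1cm and to 165 to 1714 FPKM in mMSCs, and the 13 mMSC markers to 5136 to 12093 FPKM in mMSCs and 1005 to 1835 FPKM in HL1cm. Of 11 macrophage markers in the table at most 2 reached 1 FPKM in any given mMSC, with sums of 3.10 to 369 FPKM. Those highest anywhere were Cd14 (up to 337 FPKM), Cd68 (48.1 FPKM, in mMSC11 alone), Csf1r (up to 32.6 FPKM) and Fcer1g (9.79 FPKM, in mMSC5 alone), and of 7 endothelial markers at most 1 did in any cell. Neither labels nor methods name separate cultures, so each cell type was 1 sample. Differences between cell types therefore carry no test, and single cells are not replicates.

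The mMSCs ran from cells with few of the S phase genes to cells with nearly all of them. At 1 FPKM or more, the number of the 31 genes found in an mMSC ran from 10 (mMSC12, mMSC13 and mMSC15) to 29 (mMSC1, mMSC6, mMSC11 and mMSC14), with a median of 21. The 5 HL1cm held 26, 29, 23, 28 and 27 of them, in the order of their numbers, mMSC-PC held 30 and HL1cm-PC 31. The S level of a library was taken as the mean log2 FPKM over the 31 genes, with values under 1 FPKM set to 1. It was lowest in mMSC12 (1.11), mMSC3 (1.30), mMSC13 (1.32), mMSC15 (1.39), mMSC7 (1.62) and mMSC2 (1.72). Above these lay mMSC9 (2.03), mMSC5 (2.56) and mMSC10 (2.59), and then, after the widest step between neighbours (0.97), mMSC16 (3.56), mMSC4 (3.75), mMSC8 (4.26), mMSC6 (4.62), mMSC14 (5.08), mMSC11 (5.26) and mMSC1 (5.36). The HL1cm, all above the 9 lowest mMSCs, were at 4.26, 5.27, 2.96, 5.47 and 4.48 for HL1cm1 to HL1cm5. For the mMSCs the mean was 2.97 ± 1.57 (SD, n = 16), for the HL1cm 4.49 ± 0.99 (SD, n = 5), where the SD is the spread of cells within 1 sample. Summed over all genes of the table, FPKM ran from 630240 (mMSC13) to 2.53e+06 (mMSC1) in the mMSCs, with 679962 in mMSC11. In the HL1cm the sums ran from 672862 to 2.26e+06. The order of the cells by S level was not recomputed with equal sums.

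**Figure D1:**
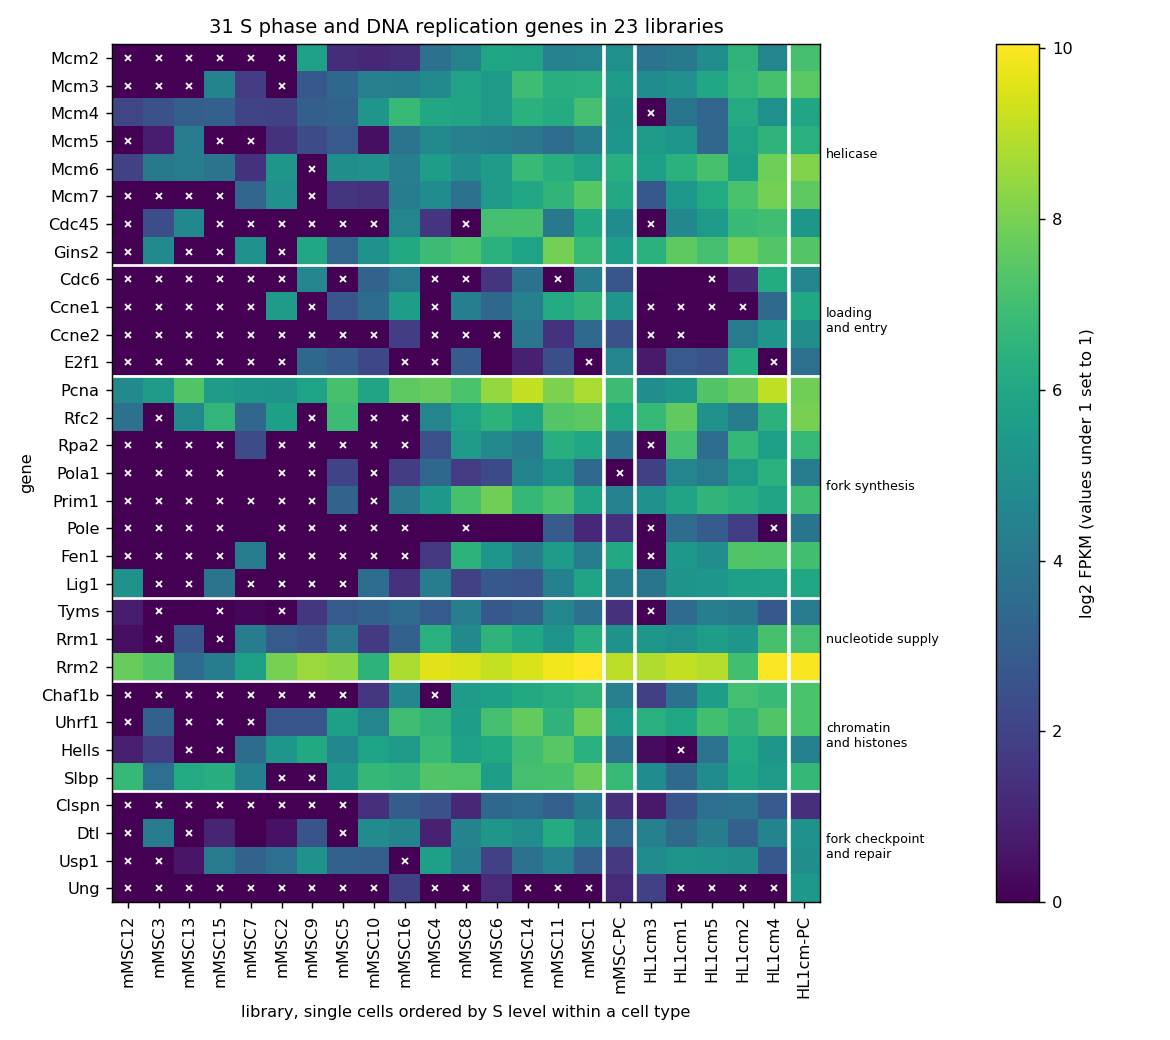
Log2 FPKM of the 31 genes (rows, by role) in the 23 libraries (columns), with values under 1 FPKM set to 1 and values listed at 0 marked by a cross. Within each cell type the single cells are ordered by S level, from 1.11 (mMSC12) to 5.36 (mMSC1) and from 2.96 (HL1cm3) to 5.47 (HL1cm4), and crosses are dense in the columns of the mMSCs at the left; Pcna and Rrm2 have none.

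Most of the genes were higher on average in HL1cm than in mMSCs. The values of the groups overlapped for all 31, as for nearly all genes expressed here. The difference of the mean log2 FPKM, HL1cm minus mMSC, was 1 or more for 22 of the 31 genes, against 21.6% of the 11850 genes that reached 1 FPKM in 2 or more single cells, and −1 or less for 2 genes (Ccne1 and Hells), against 21.4%. Its median over the 31 genes was 1.75, and −0.08 over the 11850. It was 0.90 over the 31 genes with values under 10 FPKM set to 10. Every HL1cm lay above every mMSC for 0 of the 31 genes (1.77% of the 11850), and every mMSC above every HL1cm for 0 (2.19%). Without HL1cm5 the HL1cm lay above all mMSCs for 1 gene, Mcm5. The share of all genes without HL1cm5 was not computed, so this count has no background. With values under 10 FPKM set to 10, the counts were 14 higher and 0 lower, against 7.69% and 7.44% of the 11850. In these unstranded libraries, reads of Gins2 and its opposite neighbour Gse1 (2758 shared exon bases), Fen1 and Gm10143 (1909) and Rfc2 and Lat2 (952) cannot be told apart where they overlap, and shorter overlaps touch Mcm7, Cdc45, Ccne2, Pole, Lig1 and Slbp.

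**Figure D2:**
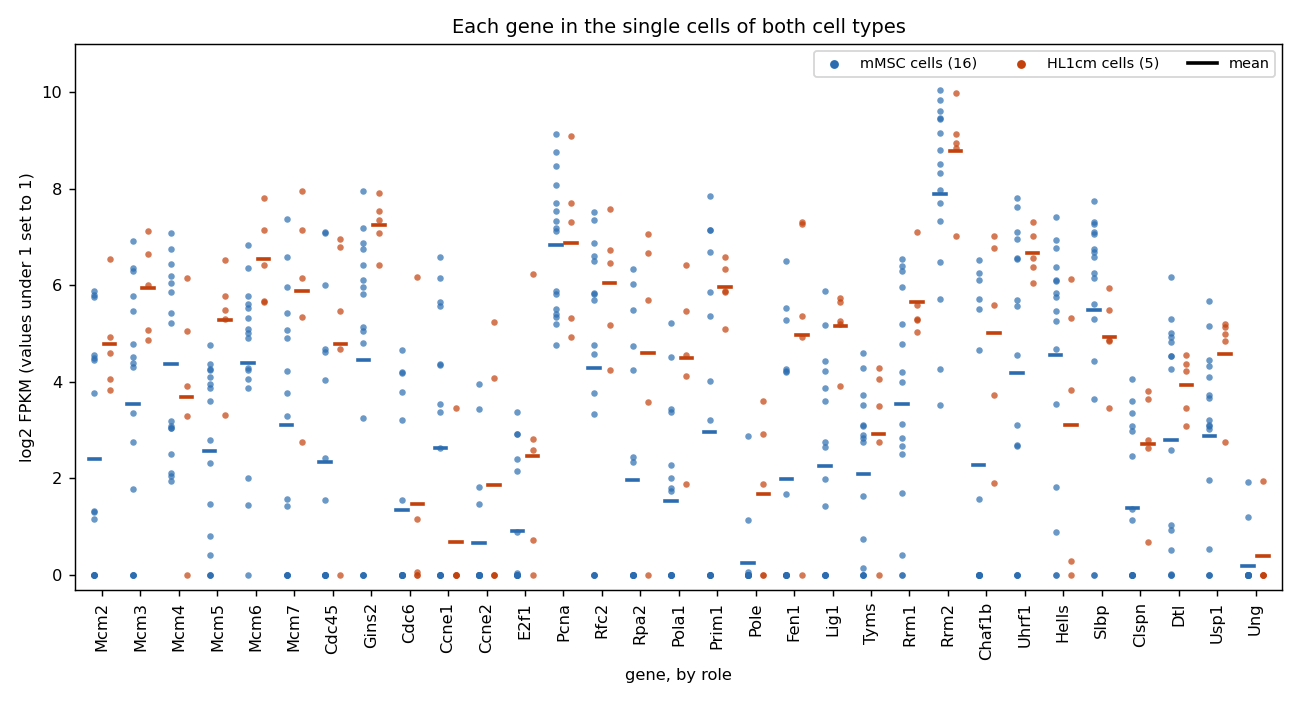
Log2 FPKM (values under 1 set to 1) of each gene in the 16 mMSC cells (blue) and the 5 HL1cm cells (orange), with a bar at the mean of each cell type. Orange bars lie above blue bars for most genes, below them for Mcm4, Ccne1, Hells and Slbp, and level with them for Pcna, and the points of the cell types overlap for all 31 genes.

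Of the 8 helicase genes, 7 were higher in HL1cm by 1 or more on the log2 scale, with a median difference of 2.42, and Mcm4 was not among them. Mcm5, a subunit of the MCM ring whose promoter is printed with its overlapping E2F matches, was listed at 0 in 3 mMSCs and reached 27.2 FPKM in mMSC4, with a median of 9.57. In HL1cm1 to HL1cm5 it was at 39.2, 55.2, 44.7, 92.5 and 9.88 FPKM. All HL1cm but HL1cm5 thus lay above the highest mMSC, and the difference of the means was 2.72. Mcm6, another subunit and the second promoter printed, was listed at 0 in mMSC9, had a median of 31.3 FPKM and reached 114 FPKM in mMSC14. It was at 86.3, 50.4, 51.1, 225 and 141 FPKM in the HL1cm, a difference of 2.14 in the mean log2 value. Mcm2, Mcm3 and Mcm7, the remaining higher subunits, differed by 2.39, 2.40 and 2.77. Mcm2 was listed at 0 in 6 mMSCs, with a median of 2.49 FPKM and up to 59.2 FPKM in mMSC6, and was at 16.6, 93.7, 14.2, 24.3 and 30.5 FPKM in the HL1cm. Mcm3 had a median of 20.4 FPKM in mMSCs and reached 121 FPKM, and lay between 29.3 and 139 FPKM in HL1cm, while Mcm7 had a median of 11.7 and reached 167 FPKM in mMSC1, and lay between 6.78 and 248 FPKM in HL1cm.

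Mcm4 was not higher in HL1cm by this measure, and its sign rested on HL1cm3. It was the only subunit above 0 in every mMSC, from 3.87 FPKM (mMSC2) to 136 FPKM (mMSC1) with a median of 23.2, and it was at 15.1, 71.2, 0, 33.4 and 9.75 FPKM in HL1cm1 to HL1cm5. The difference of the means was −0.69, and it lay between −0.88 and −0.37 under the other scalings and floors tried, but it was 0.23 without HL1cm3, where Mcm4 was listed at 0. Mcm4 had the lowest value of the 6 subunits in HL1cm1, HL1cm3, HL1cm5 and HL1cm-PC, and in no mMSC, where Mcm2 or Mcm5 was lowest, or tied at 0, in 14 of 16 cells. Cdc45, which joins the ring to activate it, was listed at 0 in 8 mMSCs and in HL1cm3, and reached 138 FPKM in mMSC14 and 124 FPKM in HL1cm4. Gins2, a subunit of GINS, was high in all HL1cm (186, 239.6, 86.0, 162 and 136 FPKM), had a median of 45.8 FPKM in mMSCs and was listed at 0 in 4 of them. The differences were 2.44 for Cdc45 and 2.80 for Gins2.

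The genes for loading and entry were the lowest role on average, with a mean log2 FPKM of 1.39 in mMSCs and 1.63 in HL1cm. Cdc6, which brings the MCM ring to origins, was above 0 in 6 of the 16 mMSCs, between 2.95 FPKM (mMSC6) and 25.4 FPKM (mMSC9). In HL1cm1 to HL1cm5 it was at 0.96, 2.24, 1.05, 71.7 and 0 FPKM, so HL1cm4 stood apart. The mean log2 difference was 0.13, and −1.04 without HL1cm4. Ccne1, cyclin E1, was above 0 in 9 mMSCs, up to 96.3 FPKM in mMSC1, and in HL1cm4 alone of the HL1cm, at 11.0 FPKM. It was nevertheless at 64.2 FPKM in HL1cm-PC and 37.7 FPKM in mMSC-PC, and its difference of the means was −1.95. Ccne2, cyclin E2, was above 0 in 4 mMSCs, all of them among the 7 cells of highest S level (mMSC1, mMSC11, mMSC14 and mMSC16), with up to 15.5 FPKM. In the HL1cm it was at 0, 17.0, 0, 37.9 and 0.79 FPKM, a difference of 1.20, which was 0.64 without HL1cm2 and 0.36 without HL1cm4. E2f1, the factor after which the printed letters are named, was above 0 in 7 mMSCs, where it did not pass 10.5 FPKM, and at 7.01, 75.1, 1.66, 0 and 6.02 FPKM in HL1cm1 to HL1cm5. Its highest value among mMSCs was in mMSC9, a cell of S level 2.03, it was listed at 0 in mMSC1, the cell of highest S level, and its difference was 1.55, or 0.61 without HL1cm2. In mMSC4 all 4 entry genes were listed at 0, as they were in mMSC3, mMSC7, mMSC12, mMSC13 and mMSC15, yet 24 of the 31 genes were at 1 FPKM or more there.

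Of the 8 genes of synthesis at the fork, 7 were higher in HL1cm by 1 or more, with a median difference of 2.77 over the 8. Pcna, the sliding clamp, was the exception and was above 0 in all 23 libraries. It ran from 27.2 FPKM (mMSC12) to 562 FPKM (mMSC14) in mMSCs with a median of 143, and was at 39.8, 208, 30.6, 546 and 159.5 FPKM in the HL1cm. Its mean log2 difference was 0.04, with values from −0.29 to 0.34 under the other scalings and floors, so no direction is given. Prim1 and Pola1, the primase and the catalytic subunit of polymerase alpha that together start new strands, differed by 3.00 and 2.97. Prim1 was listed at 0 in 8 mMSCs and above 0 in the other 8, up to 232 FPKM in mMSC6, while its 5 HL1cm values were close together (59.2, 80.8, 34.3, 58.6 and 95.9 FPKM). Pola1 reached 37.2 FPKM in mMSC11 with a median of 2.04, and was at 23.6, 44.5, 3.72, 86.2 and 17.4 FPKM in the HL1cm. The highest values of Prim1 in mMSCs thus exceeded all HL1cm values, and the 8 mMSCs listed at 0 lay under all of them.

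Fen1 and Lig1, the flap nuclease and the ligase that join Okazaki fragments, differed by 2.99 and 2.90. Fen1 was listed at 0 in 9 mMSCs and reached 90.9 FPKM in mMSC8, and was at 41.0, 159.9, 0, 153.9 and 30.3 FPKM in the HL1cm. Lig1 was above 0 in 10 mMSCs, among them mMSC12 with 36.1 FPKM, the cell of lowest S level, and lay between 15.2 and 53.7 FPKM in all HL1cm. Rpa2, a subunit of the protein that coats single-stranded DNA, was listed at 0 in 9 mMSCs and differed by 2.63, with values of 134, 103, 0, 51.6 and 11.99 FPKM in the HL1cm. Rfc2, a subunit of the clamp loader, differed by 1.75 and was at up to 183 FPKM in mMSCs and 193 FPKM in HL1cm. Pole, the catalytic subunit of polymerase epsilon, was low throughout, with 7.40 FPKM at most in mMSCs and 12.2 FPKM in HL1cm, and its difference of 1.42 was 0.94 without HL1cm1 and 0.06 with values under 10 FPKM set to 10.

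The genes of nucleotide supply included the most abundant of the 31. Rrm2, the small subunit of ribonucleotide reductase that is made in S phase, was above 0 in every library, from 11.5 FPKM (mMSC13) to 1058 FPKM (mMSC1) with a median of 345 in mMSCs. It was at 564, 129.9, 461, 1020 and 492 FPKM in HL1cm1 to HL1cm5 and 993 FPKM in HL1cm-PC. HL1cm2, the HL1cm with the second-highest S level, had its lowest value, and the difference of the means was 0.90, or 1.34 without HL1cm2. Rrm1, the large subunit, was at 32.6, 38.7, 39.7, 138 and 48.6 FPKM in the HL1cm and had a median of 12.4 FPKM in mMSCs with 2 cells at 0, a difference of 2.12. Tyms, which makes thymidylate, stayed under 25 FPKM everywhere, with a median of 6.97 FPKM in mMSCs and 11.3 FPKM in HL1cm and a difference of 0.84, or 1.57 without HL1cm3. Annotated pseudogene copies that carry the name of the gene exist for Pcna and Tyms and could share reads with them. Copies under other names were not searched for, for any of the 31 genes.

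The 4 genes of chromatin and histone supply were split. Uhrf1, which keeps DNA methylation in place after replication, was at 65.9, 94.7, 82.8, 159 and 130.2 FPKM in the HL1cm, and ran from 0 in 4 mMSCs to 226 FPKM in mMSC1. Chaf1b, a subunit of the chaperone that lays histones on new DNA, was above 0 in 7 mMSCs, up to 92.4 FPKM, and in all HL1cm, between 3.73 and 130.4 FPKM. Their differences were 2.48 and 2.73. Hells, a remodelling ATPase needed for DNA methylation, was lower in HL1cm by 1.45, with a median of 49.3 FPKM in mMSCs and values of 0, 70.5, 1.22, 40.0 and 14.3 FPKM in HL1cm1 to HL1cm5. The difference was −0.67 without HL1cm1, −0.74 without HL1cm3 and −2.2 without HL1cm2. Slbp, which binds the stem-loop of histone mRNAs, was under the mMSC median of 86.1 FPKM in all 5 HL1cm (11.0, 61.7, 29.3, 44.9 and 28.9 FPKM), with a difference of −0.57. Since 2 mMSCs were listed at 0 for Slbp, its mean in mMSCs is low for its median. The histone genes themselves, most of whose mRNAs carry no poly(A) tail, were little seen, with 2 to 7 of 67 histone cluster genes at 1 FPKM or more in a single cell.

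The genes that guard the fork were low in both cell types, and 3 of the 4 were higher in HL1cm by 1 or more. Clspn, the checkpoint mediator Claspin, was above 0 in 8 mMSCs, up to 16.6 FPKM in mMSC1, and at 6.18, 14.1, 1.61, 6.95 and 12.6 FPKM in the HL1cm, a difference of 1.34. Dtl, which directs destruction of CDT1 at the fork, had a median of 12.7 FPKM in mMSCs and 18.6 FPKM in HL1cm and differed by 1.15, or 0.99 without HL1cm4. With values under 10 FPKM set to 10 the difference of Dtl turned to −0.15 and that of Clspn was 0.10. Usp1, which removes ubiquitin from PCNA, was at 36.9, 31.7, 28.9, 6.76 and 35.1 FPKM in the HL1cm and had a median of 8.95 FPKM in mMSCs with 51.4 FPKM in mMSC4, a difference of 1.71. Ung, the uracil glycosylase, was nearly undetected, with 2.30 FPKM in mMSC6, 3.79 FPKM in mMSC16 and 3.85 FPKM in HL1cm3, although HL1cm-PC had 41.2 FPKM. Its difference was 0.19, and −0.20 without HL1cm3.

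Within the mMSCs the genes varied together. The SD of log2 FPKM over the 16 cells had a median of 2.26 over the 31 genes and 1.38 over the 10867 genes that reached 1 FPKM in 2 or more mMSCs. The 10867 genes were not matched to the 31 for level or for the number of cells that held them. The median Pearson r over the 465 pairs of genes was 0.52, and 0.000226 over pairs of all these genes, with 442 pairs above 0 and 249 above 0.5. These are descriptions over 16 cells that share a device and a sequencing run and for which no separate cultures are named, and they carry no p. The median r was 0.66 within nucleotide supply, 0.65 among Mcm2 to Mcm7, 0.60 within all helicase genes, 0.55 within chromatin and histones, 0.53 within fork synthesis, 0.27 within loading and entry and 0.23 within fork checkpoint and repair. The highest pairs were Rpa2 with Fen1 (0.95) and Mcm4 with Clspn (0.92). Rpa2 and Fen1 were listed at 0 in the same 9 mMSCs, so their r rests in large part on values at the floor. The lowest was Usp1 with Ung (−0.43). Each gene was also set against the mean of the other 30, and Prim1 (r = 0.93), Clspn (0.92), Mcm4 (0.90), Chaf1b (0.90) and Pola1 (0.90) followed it most closely, while E2f1 (0.17), Ung (0.23), Usp1 (0.31), Cdc6 (0.35) and Rfc2 (0.39) did so least. By Spearman's rho the lowest were Ung (0.24), Usp1 (0.33), Lig1 (0.37), E2f1 (0.405) and Pole (0.406).

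**Figure D3:**
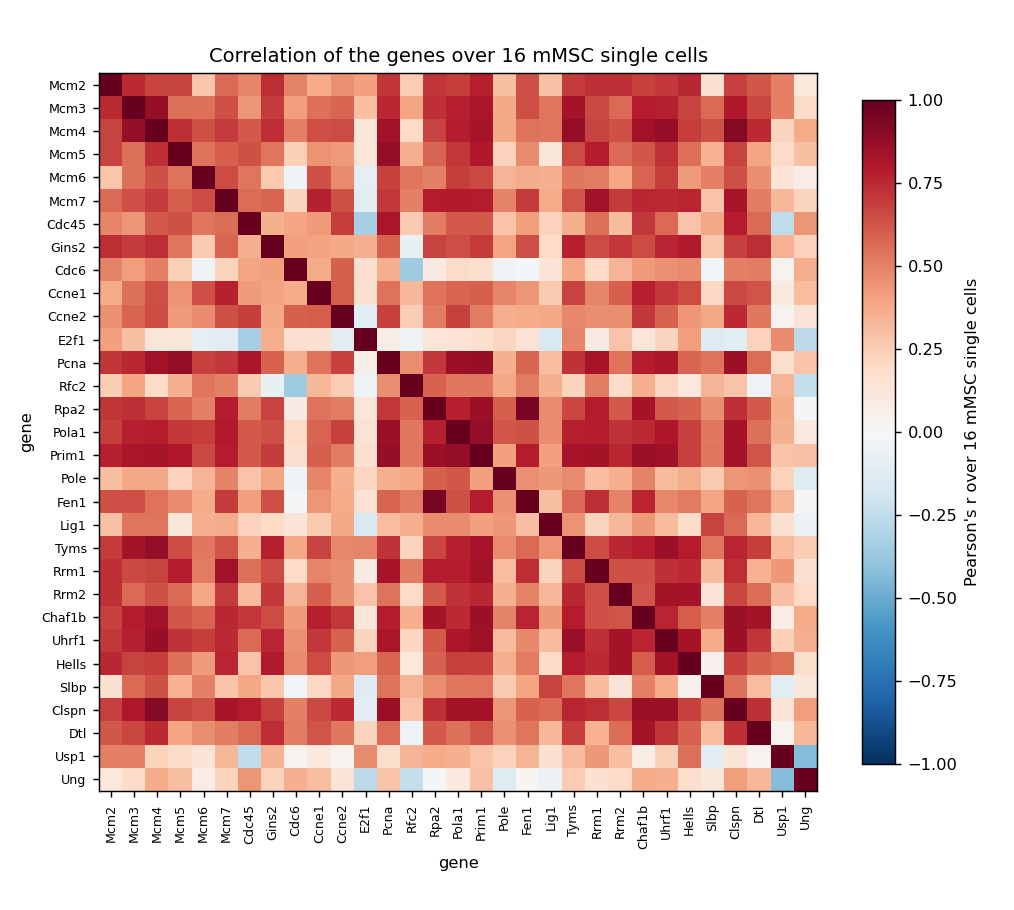
Pearson's r between the log2 FPKM of each pair of the 31 genes over the 16 mMSC single cells, from −1 (blue) to 1 (red). Red fills most of the square, with 442 of 465 pairs above 0, and the paler rows belong to E2f1, Ung, Usp1, Cdc6 and Rfc2.

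The S level was set against 12 other measures of the 16 mMSCs. It was closest to the level of 50 other replication genes (r = 0.97, rho = 0.94). It gave r = 0.84 (rho = 0.84) with the DNA damage response genes, 0.84 (0.77) with the G1/S regulators, 0.77 (0.74) with the further nucleotide supply genes and 0.64 (0.71) with the CDK inhibitors. Against the level of 40 G2/M genes, such as cyclin B and the mitotic kinases, it gave r = 0.85 and rho = 0.80, and r = 0.80 without mMSC1 and mMSC11, the 2 cells farthest from the median. The cells were also divided at the widest step in S level, a division made after the values were seen. Then r was 0.57 and rho 0.35 within the 9 cells below it, and 0.39 and 0.25 within the 7 above it. A cut on the S level narrows its range and so tends to lower r on either side, so no conclusion is drawn from these values. The S level gave r = 0.40 with the count of genes that reached 1 FPKM, 0.12 with the level of 15 general genes, −0.06 with Gapdh and −0.03 with the macrophage markers. Against the mMSC markers r was −0.50, and −0.26 without mMSC1 and mMSC11. Leaving out mMSC9 and mMSC15, in which the fewest genes were found, r with the G2/M level was 0.83.

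Cells of high S level differed in their G2/M genes. The G2/M level was 5.53 in mMSC11, 5.08 in mMSC4, 4.95 in mMSC8, 4.41 in mMSC14 and 4.06 in mMSC1. It was 2.2 in mMSC6 and 1.51 in mMSC16, which had S levels of 4.62 and 3.56, and 3.22 in mMSC5, which had a lower S level of 2.56. The other 8 mMSCs lay between 0.18 and 0.73. Of 40 G2/M genes, 39 were at 1 FPKM or more in mMSC4, where no entry gene was above 0, and 22 in mMSC6, where Mcm2, Prim1 and Rrm1 had their highest mMSC values (59.2, 232 and 93.7 FPKM). In the HL1cm, too, S and G2/M levels did not go together in every cell. The G2/M level was 6.83, 5.86, 5.36 and 5.31 in HL1cm1, HL1cm3, HL1cm4 and HL1cm5 and 1.49 in HL1cm2, whose S level of 5.27 was exceeded only by that of HL1cm4 among the HL1cm, while HL1cm3 had the lowest S level (2.96). HL1cm2 had the highest values of Mcm2, Mcm4, Gins2, E2f1, Fen1, Chaf1b, Hells, Slbp and Clspn among the HL1cm. It had the lowest values of Mcm6, Rfc2, Rrm2 and Dtl, and was listed at 0 for Ccne1 and Ung. HL1cm4 was highest for more of the genes: Mcm3, Mcm5, Mcm6, Mcm7, Cdc45, Cdc6, Ccne1, Ccne2, Pcna, Pola1, Lig1, Rrm1, Rrm2, Uhrf1 and Dtl. No phase was assigned to any cell.

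**Figure D4:**
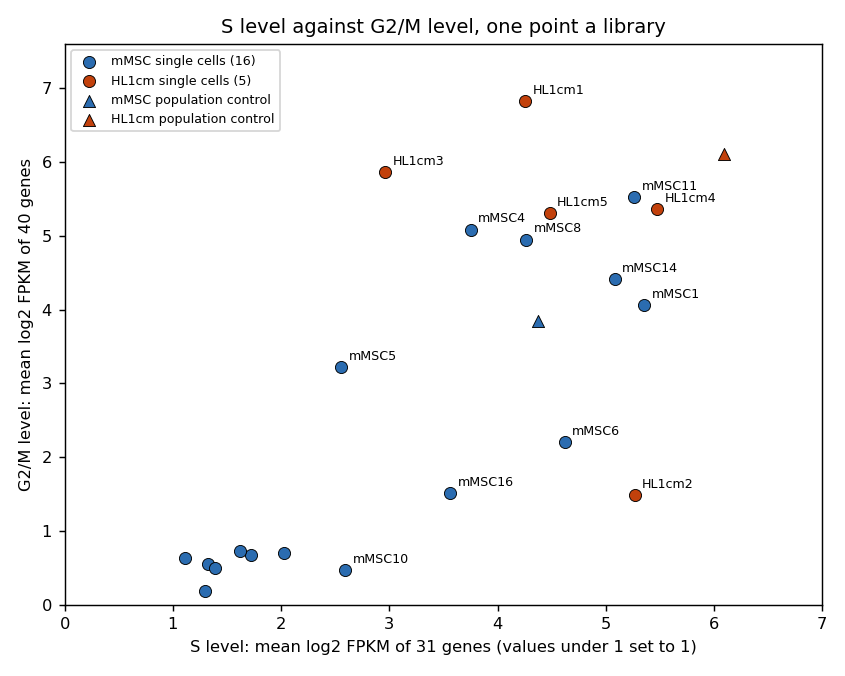
S level (mean log2 FPKM of 31 genes, horizontal) against G2/M level (mean log2 FPKM of 40 genes, vertical), 1 point a library, with circles for single cells, triangles for population controls, blue for mMSC and orange for HL1cm. A group of mMSCs sits at the lower left with G2/M levels of 0.73 or less, and mMSC6, mMSC16 and HL1cm2 sit at the lower right, with S levels of 4.62, 3.56 and 5.27 and G2/M levels of 2.2, 1.51 and 1.49.

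The genes outside the lists whose log2 FPKM was most like the S level over the 16 mMSCs were then found. Among 6777 genes that reached 1 FPKM in 8 or more mMSCs the median r was 0.02, and 39 had r of 0.8 or more, among them 9 G2/M genes. Of the 39, 11 are genes of the S level itself, each set against a mean that holds it. The closest was 2810417H13Rik (r = 0.93), named Pclaf in RefSeq, which encodes a PCNA-associated factor. It was at 102 FPKM in mMSC1, 106 FPKM in mMSC11, 114 FPKM in mMSC8 and 205 FPKM in mMSC14, listed at 0 in 6 mMSCs, and at 52.0, 4.95, 44.7, 74.2 and 56.8 FPKM in the HL1cm. Next came Sgol2 (0.90), which protects cohesin at centromeres, Cenpi (0.87) and Cenpk (0.87) of the kinetochore, the augmin subunit Haus8 (0.87) and Cep55 (0.86), which acts in the last step of cell division. Tcf19 (0.86), Slfn9 (0.85), the condensin subunit Smc2 (0.84) and the spindle checkpoint gene Mad2l1 (0.83) completed the 10.

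The other cell cycle lists placed the difference between cell types in context, each beside the same 21.6% and 21.4% of all genes tested. Of 50 other replication genes in the table, 24 were higher in HL1cm by 1 or more and 3 lower, with a median of 0.97. The most different were Rpa1, the large subunit of the complex with Rpa2 (5.10), the polymerase delta subunit Pold2 (4.10), the MCM loader Cdt1 (3.77) and the histone chaperone Asf1b (3.74). Rpa1 was at 101, 273, 78.8, 537 and 85.9 FPKM in HL1cm1 to HL1cm5 and at 59.8 FPKM at most in mMSCs. It alone of the 50 had every HL1cm above every mMSC, against 0 of the 31 and 1.77% of all genes tested. Both counts are near that share. Of 19 further genes of nucleotide supply 8 were higher and 2 lower (median 0.60), led by thymidine kinase Tk1 (4.06) and, in the other direction, by Samhd1, which breaks down dNTPs (−2.96). Dtymk (1.94) and Gart (1.58), of thymidylate and purine synthesis, followed. Of 40 G2/M genes 38 were higher and 0 lower (median 2.70), with the ubiquitin carrier Ube2c (5.22), Cdca8 of the chromosomal passenger complex (4.82), the mitotic kinase Aurka (4.68) and Gtse1 (4.53) most different. Of 25 genes of the DNA damage response 14 were higher and 0 lower (median 1.31), with Xrcc1 of single-strand break repair (3.70), the kinase Wee1 that holds back mitosis (2.70), the checkpoint mediator Mdc1 (2.31) and Rad51ap1 of recombination (2.19) most different.

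The regulators of entry into S phase did not share this direction. Of 24 G1/S regulators 6 were higher and 8 lower in HL1cm, with a median of −0.04. Ccnd2 and Ccnd1, the D-type cyclins that act before cyclin E, differed by −6.81 and −5.96. Ccnd2 ran from 61.1 FPKM (mMSC4) to 242 FPKM (mMSC2) in mMSCs and was at 1.63, 0, 0, 0.53 and 1.14 FPKM in the HL1cm, and Ccnd1 ran from 10.9 FPKM (mMSC15) to 219 FPKM (mMSC2) and was above 0 in HL1cm1 alone, at 1.56 FPKM. Both were thus present in every mMSC, those of low S level included. Myc differed by −3.60 and was above 0 in HL1cm2 alone of the HL1cm (136 FPKM), while the repressor E2f8 was higher by 3.06. Of 7 CDK inhibitors 4 were higher in HL1cm and 0 lower (median 1.86). Cdkn2d was at 318, 124, 145, 101 and 227 FPKM in the HL1cm and at 66.2 FPKM at most in mMSCs (5.27), and Cdkn2c (3.64), Cdkn1b (2.41) and Cdkn2a (1.86) followed. Cdkn2a was listed at 0 in all 16 mMSCs and in 3 HL1cm. Of 15 general genes 2 were higher and 5 lower, with a median of −0.39, and B2m (−3.91), Tbp (−2.47) and Actb (−2.23) were among those lower.

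The population controls are bulk libraries, 1 per cell type. The 31 genes lay on both sides of the mean of the cells in mMSC and mostly above it in HL1cm. All genes tested did much the same, with medians of 0.00 and 0.34, so these positions are not read as a trait of the 31. In the controls, more of a transcript per cell and more cells that hold it cannot be told apart. In mMSC-PC, compared on the log2 scale with the average FPKM over 16 cells, 9 of the 31 genes were higher by 1 or more (22.7% of the 11850 genes) and 5 lower (17.5%), with a median of 0.24 against 0.00 for all genes. E2f1 was at 23.9 FPKM in mMSC-PC, above all 16 mMSCs (10.5 FPKM at most), and Mcm5 at 38.5 FPKM also lay above all 16. Pola1 was listed at 0 in mMSC-PC although 9 of the 16 mMSCs held it. For HL1cm-PC, 13 genes were higher (33.4%) and 1, Clspn, lower (11.4%), with a median of 0.89 against 0.34 for all genes. The largest gaps were those of Ung (41.2 FPKM against 3.85 FPKM in the highest cell) and Ccne1 (64.2 FPKM against 11.0 FPKM). These medians moved with the setting: rescaling of all libraries to an equal sum gave 0.94 for mMSC-PC and 1.30 for HL1cm-PC. Scaling by median ratios gave 0.37 and 0.41, rescaling without small RNA genes 0.22 and 0.51, and a floor of 10 FPKM 0.00 and 0.83. The S level was 4.37 in mMSC-PC, above 12 of the 16 mMSCs, and 6.09 in HL1cm-PC, above all 5 HL1cm. This level falls with each gene under 1 FPKM. The controls held 30 and 31 of the genes at 1 FPKM or more, and single cells 29 at most, so bulk and single-cell levels are not alike.

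**Figure D5:**
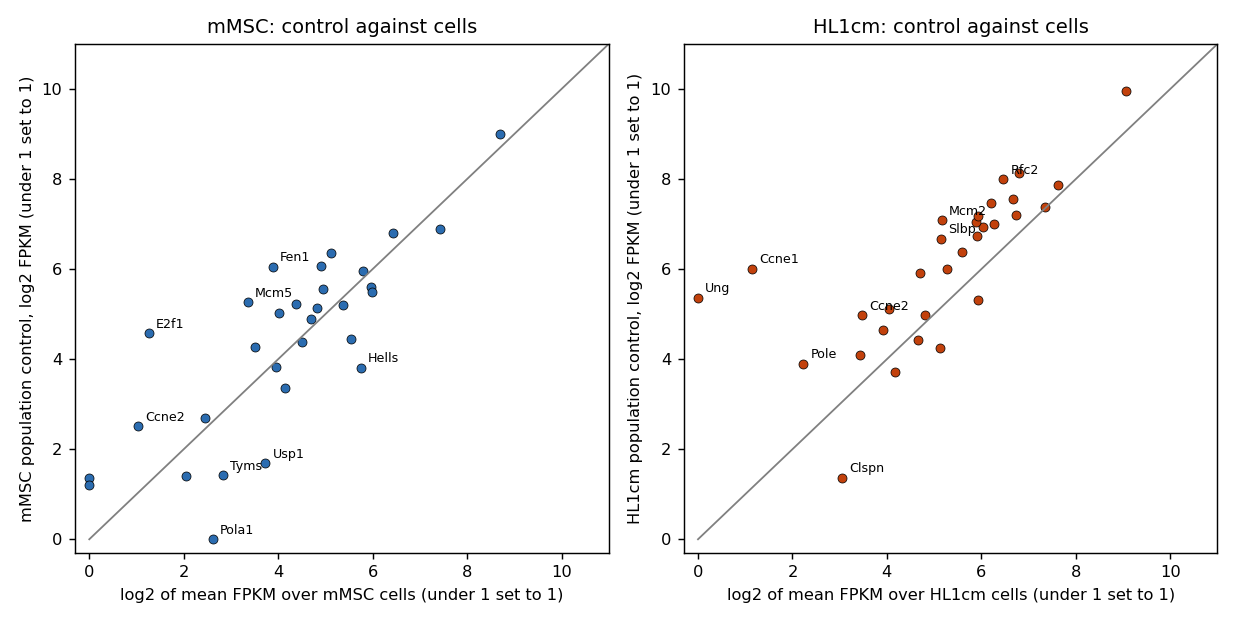
Log2 FPKM of the 31 genes in the population control (vertical) against log2 of the mean FPKM over the single cells (horizontal) for mMSC (left) and HL1cm (right), values under 1 set to 1, with the line of equality. In mMSC the points lie on both sides of the line, E2f1 above and Pola1 below it, and in HL1cm most lie above it, with Ung and Ccne1 farthest and Clspn below.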

How the data were processed

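RNA-seq of 21 single cells and 2 population controls was used as FPKM values, which the authors deposited for 23284 genes after alignment to mm10 with TopHat2 2.0.12 and estimation with Cufflinks 2.2.1 (versions from the submitters' processing notes), with default options per the methods. No counts were used and no rescaling was applied, so a few very abundant or very short genes can shift all others in a library. Before taking log2 values, those under 1 FPKM were raised to 1. Library groups came from the labels. Each cell type was 1 sample, so no test was made. The 31 genes and the other lists were chosen with earlier results of these data known. All 31 genes were described. From other lists at most 4 genes of largest difference were named (1 of them is not reported here), and of genes outside the lists the 10 of highest r with the S level. Alternatives changed the floor, the scaling, the filter and the cells. The computation of differences and correlations was tested on simulated data. Promoters were from RefSeq (GRCm38.p6) and exons from GENCODE M21. Python 3.11.15, numpy 2.4.6, pandas 2.3.3 and matplotlib 3.10.9 were used.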

Additional observations from a re-analysis of the deposited data

Results flagged for a closer look

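In the groups of 5 HL1cm, a cell was marked where its gap to the nearest other cell was more than 0.71 of the range of the group (Dixon's criterion for 5 values). Of 35 groups examined (the 31 genes, 3 levels and the number of genes found), 6 were marked. A chance rate of about 1 in 20 holds for normally distributed values and was not checked for values raised to 1 FPKM. For Ccne1 and Ung, 4 HL1cm were listed at 0, so the gap of 1 follows from the floor. HL1cm4 stood apart for Cdc6, with 71.7 FPKM and a gap of 0.81 of the range on the log2 scale, and for Ccne1, where it alone was above 0 (11.0 FPKM, gap 1). It also stood apart for Rrm1, high with 138 FPKM (gap 0.72), and for Usp1, low with 6.76 FPKM (gap 0.85). HL1cm3 alone held Ung (3.85 FPKM, gap 1). HL1cm2 stood apart for the G2/M level, low with 1.49 (gap 0.72).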

How the results depend on the processing

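Of 232 values recomputed under alternatives for 18 results, 220 stayed within a set tolerance (counts and SDs within 1.5 times, correlations within 0.1, other values within the SD over cells). The median difference over all genes changed sign under median ratios. Of single genes, Mcm4 and Ung changed sign without HL1cm3, Cdc6 without HL1cm4, Pcna without HL1cm2, HL1cm4 or HL1cm5 and after rescaling to the same sum, and Dtl at a floor of 10 FPKM. With values under 10 FPKM set to 10, 14 of the 31 genes were higher in HL1cm and 0 lower, against 7.69% and 7.44% of all genes, the median difference was 0.90, the difference in S level was 0.73 (1.52 as reported), and the median SD over mMSCs was 1.08. At 10 FPKM, the median mMSC held 10.5 of the 31 genes. Without a filter on low values, 11.3% of all genes were higher and 10.9% lower. Without each HL1cm in turn, the number of lower genes was between 1 and 4. It was 4 without HL1cm4 (Ccne1, Hells, Mcm4 and Cdc6) and 3 without HL1cm2. The number of genes that did not overlap was between 0 and 1 (Mcm5, without HL1cm5). The shares of all genes were not computed without each HL1cm. Rescaling to the same sum moved the median of all genes from −0.08 to −0.23, and scaling by median ratios moved it to 0.06, while the median of the 31 genes was 1.52 and 2.01. Rescaling without small RNA genes and leaving out each mMSC in turn were added after the data were seen (95 values), and all of these stayed within the tolerance. The tolerances for values without a test were chosen after the data were seen, and those set by the SD over cells (0.99 to 1.57) are wide. A median difference of 0.90 in place of 1.75 lay within them. So did a median of 0.94 in place of 0.24 for mMSC-PC. No paired analysis was possible because the result comes from no test and the labels pair no cells. Depth, which the FPKM table does not hold, limits the low genes most.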
